A study of Mus musculus with 10 samples.

Results

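Hedgehog signalling was followed through 9 of its genes in 10 primary pancreatic tumours of KPF mice. The genes were taken by symbol from the deposited table of 55487 genes: the ligands Shh and Ihh, the receptor Ptch1, the decoy receptor Hhip, the co-receptor Cdon, the signal transducer Smo and the transcription factors Gli1, Gli2 and Gli3. All 9 were found once each, and all 9 had enough counts to be tested, as had 16565 genes in all. KPF is a mouse model of pancreatic cancer, here on the C57BL/6J background, whose alleles the labels do not spell out. The 5 tumours titled Grem1wt/wt came from mice given peanut oil, and the 5 titled Grem1∆/∆ came from mice given tamoxifen at 100 mg/kg once daily for 5 days, both from 5 weeks of age. Mice were used at 6 to 12 weeks. Grem1 encodes a secreted antagonist of bone morphogenetic proteins. Which cells the recombination was aimed at and which part of Grem1 it removes is not stated in the labels, and genotype and tamoxifen cannot be told apart. The labels call the material bulk tumour tissue, while their extraction text speaks of sorted cells.

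In the Hedgehog pathway a secreted ligand binds PTCH1 on a receiving cell, which releases the membrane protein SMO from inhibition and lets GLI transcription factors act on their targets. GLI1, PTCH1 and HHIP are themselves among those targets, GLI1 as an amplifier and the other two as negative feedback. In pancreatic cancer the ligands are known from the tumour epithelium and the response from the fibroblasts around it.

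Levels are given as CPM, the estimated counts of a gene scaled to a common library total. Total estimated counts ran from 10159891 to 18571519 per tumour. Epcam, Col1a1, Lyz2 and Pecam1, markers of epithelium, fibroblasts, macrophages and endothelium, were above 0 in all 10 libraries, and in such mixed material fewer cells of a type cannot be told apart from less RNA per cell. The targeted gene, Grem1, had a mean of 19.1 ± 15.2 CPM over wild-type and of 40.2 ± 42.1 CPM over labelled-deleted tumours (SD, n = 5), and it was above 0 in all 10, from 6.83 to 110.1 CPM among the labelled-deleted ones. This was a log2 fold change of 1.08 (SE 0.79), or -0.40 (SE 0.71) without labelled-deleted tumours 1 and 2. The groups are therefore called by their labels. Labelled-deleted tumour 1 scored 125.7 on the first principal component of all genes tested, against -38.0 to 12.3 in the other 9. Its column in the deposited table lacks the number that its title carries, and was matched by the rest of the name, which no other title shares. Labelled-deleted tumour 2 had the highest level of all 7 intestinal epithelium markers and of all 5 smooth muscle markers. Differences that either tumour moves most are given with and without it.

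The ligands were unequal, and 1 tumour had hardly any. Shh (chr5:28456815-28467256, minus strand, GRCm38) stood at 20.0, 33.4, 41.7, 17.9 and 24.3 CPM in wild-type tumours 1 to 5. In the tumours labelled deleted, in the same order, it stood at 0.979, 11.4, 15.1, 20.0 and 15.8 CPM. Tumours 1, 2, 3 and 5 labelled deleted lay below every wild-type tumour, and tumour 4 lay within the wild-type range, so the groups overlapped. Ihh (chr1:74945315-74951672, minus strand) stood at 5.27, 12.6, 12.6, 6.77 and 7.76 CPM in wild-type tumours. The tumours labelled deleted held 0.979, 13.2, 7.80, 7.21 and 6.44 CPM of Ihh. Labelled-deleted tumour 1 was lowest for both ligands, with 11 estimated counts of each. Tumour 2, the one with intestinal epithelium markers, was highest for Ihh, a ligand known from gut epithelium. The part of that tissue in its Ihh value was not tested.

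Both feedback receptors were most extreme in labelled-deleted tumour 1, in opposite directions. Ptch1 (chr13:63508328-63573598, minus strand), the receptor that holds SMO in check, stood at 33.96, 59.9, 47.3, 40.5 and 44.0 CPM in wild-type tumours. It stood at 20.6, 50.1, 48.5, 48.7 and 38.39 CPM in those labelled deleted. Tumours 2, 3, 4 and 5 labelled deleted lay inside the wild-type range, and tumour 1 lay below it. Hhip (chr8:79965851-80058006, minus strand), a membrane protein that binds and withholds ligand, had few counts in most tumours. Wild-type tumours held 0.472, 1.55, 1.65, 0.610 and 0.202 CPM of Hhip, from 2 to 20 estimated counts. The tumours labelled deleted held 47.6, 7.10, 1.89, 0.961 and 0.789 CPM. Tumour 1 labelled deleted, with 535 counts, was far above all others, and tumour 2, with 100 counts, came next.

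Ptch1 and Hhip are both known Hedgehog targets and lay at opposite ends in labelled-deleted tumour 1, so the 250 bases before the start of each are shown, from RefSeq (GRCm38.p6), with the dinucleotide CG in capitals. Promoters of 7 of the 9 genes were matched, Shh and Gli1 having no entry. The sequences, at chr13:63565736-63565985 and chr8:80058009-80058258, both on the minus strand and read 5′ to 3′, follow. The RefSeq start used for Ptch1 lies inside the GENCODE gene given above, as do those of Cdon and Gli3, searched below, inside their own GENCODE genes.
Ptch1: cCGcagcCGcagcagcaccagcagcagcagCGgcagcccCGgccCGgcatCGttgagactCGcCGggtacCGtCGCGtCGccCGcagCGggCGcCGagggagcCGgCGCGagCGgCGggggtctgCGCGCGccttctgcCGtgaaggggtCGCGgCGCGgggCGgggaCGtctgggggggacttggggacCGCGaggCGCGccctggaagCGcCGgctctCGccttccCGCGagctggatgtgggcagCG
Hhip: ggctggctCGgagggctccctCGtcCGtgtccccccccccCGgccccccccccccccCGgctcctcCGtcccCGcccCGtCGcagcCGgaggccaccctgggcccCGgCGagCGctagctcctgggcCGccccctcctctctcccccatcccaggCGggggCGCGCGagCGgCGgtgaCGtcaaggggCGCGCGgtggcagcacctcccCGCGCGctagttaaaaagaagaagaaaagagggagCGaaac
Both were rich in CG, with 41 in the Ptch1 stretch and 28 in the Hhip stretch against a median of 6 over the 32851 promoters of the table. The GLI consensus GACCACCCA, searched on both strands of the 300 bases that also take in the start, was in neither, nor in those of Ihh, Cdon, Smo, Gli2 and Gli3, and 0.253% of all promoters held it.

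Cdon (chr9:35421128-35507652, plus strand), which presents ligand to PTCH1, and Smo (chr6:29735503-29761365, plus strand), which passes the signal on, had the smallest spread of the 9 genes over the 10 tumours, with an SD of log2 CPM of 0.399 for Cdon and 0.197 for Smo against a median of 0.3 over all genes tested. Cdon stood at 43.8, 60.8, 86.0, 45.9 and 55.2 CPM in wild-type tumours. The labelled-deleted tumours held 36.1, 41.5, 79.9, 53.6 and 49.2 CPM of Cdon. Tumour 3 of each group was its highest. Smo stood at 63.2, 80.4, 79.6, 76.3 and 70.4 CPM in wild-type tumours. The labelled-deleted tumours held 100.3, 69.5, 68.6, 80.0 and 64.1 CPM of Smo, with the top value in tumour 1. Leaving that tumour aside, the highest Smo value was 1.27 times the lowest, the narrowest range of the 9 genes. The SD of log2 CPM was then 0.136 for Smo, 0.241 for Ptch1 and 0.369 for Cdon, so Ptch1 spread less than Cdon.

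The 3 GLI genes did not move alike. Gli1 (chr10:127329882-127341974, minus strand), an activator whose own transcription is a readout of the pathway, stood at 10.7, 22.5, 25.02, 18.2 and 14.7 CPM in wild-type tumours. It stood at 2.05, 9.86, 22.9, 22.5 and 10.1 CPM in those labelled deleted, so tumours 1, 2 and 5 lay below the wild-type range and tumours 3 and 4 near its top. Gli2 (chr1:118834132-119053619, minus strand), the main activator at the start of signalling, stood at 10.1, 26.8, 31.3, 27.1 and 17.2 CPM in wild-type tumours. In those labelled deleted it stood at 8.90, 14.7, 21.4, 28.8 and 16.8 CPM, and only tumour 1 lay below the wild-type range. Gli3 (chr13:15463235-15730026, plus strand), which is mostly processed to a repressor when ligand is absent, stood at 10.1, 21.9, 13.9, 15.9 and 11.1 CPM in wild-type tumours. The tumours labelled deleted held 60.2, 28.3, 12.2, 28.3 and 14.5 CPM of Gli3, and tumours 1, 2 and 4 lay above every wild-type tumour. Messenger RNA levels do not tell the processed form from the full-length one.

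**Figure D1:**
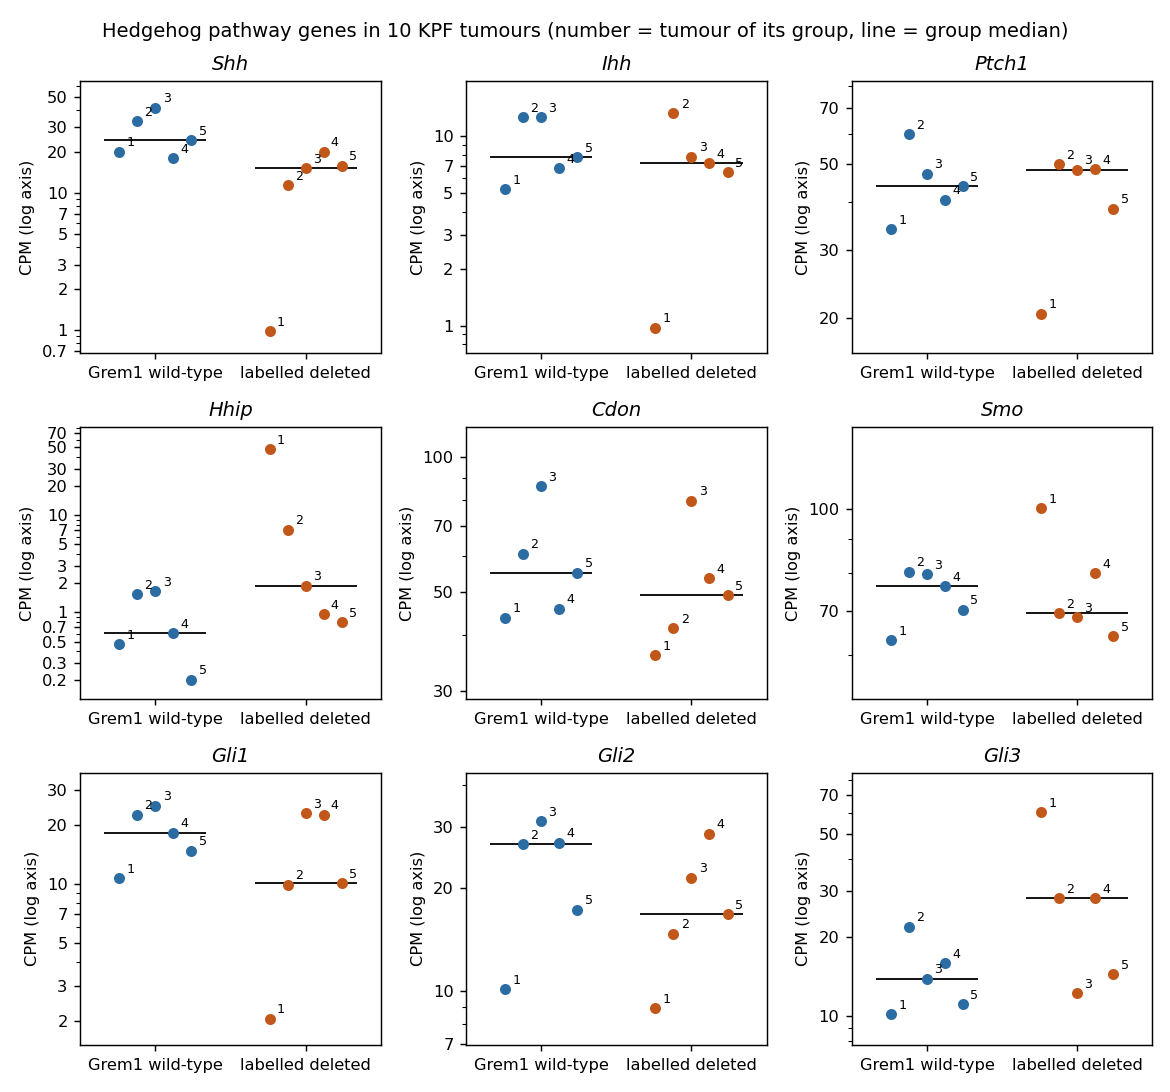
CPM (log axis) of the 9 Hedgehog genes in each tumour, by group, with the tumour's number beside its point and a line at the group median. Labelled-deleted tumour 1 is at the bottom for Shh, Ihh, Ptch1, Cdon, Gli1 and Gli2 and at the top for Hhip, Smo and Gli3.

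Shh, Gli1, Hhip and Gli3 each overlap at least 1 gene annotated on the other strand. The labels do not say if reads were assigned by strand. The overlapping gene that matters in level is Arhgap9 at Gli1, with a median of 32.3 CPM and 9.70 CPM in labelled-deleted tumour 1, its lowest. How many of the Gli1 counts could be Arhgap9 reads was not tested.

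Levels of different genes were compared as CPM per kb of exon. By median over the 10 tumours the order was Smo (13.1 CPM per kb), Cdon (6.66), Shh (6.65), Gli1 (3.29), Ptch1 (3.22), Gli2 (2.81), Ihh (2.46), Gli3 (1.58) and Hhip (0.138). Neighbours differed by more than the spread of their log2 ratio over tumours in 3 places: Smo was above Cdon in 10 of 10 tumours, Shh above Gli1 in 9 of 10, and Gli3 above Hhip in 10 of 10. The other neighbours, Gli1, Ptch1, Gli2 and Ihh among them, were not separated beyond that spread. In labelled-deleted tumour 1 the order was another, with Gli3 at 6.28, Hhip at 5.24, Gli1 at 0.410, Shh at 0.344 and Ihh at 0.321 CPM per kb. Dhh, the ligand known from Schwann cells and testis, had a median of 3.32 CPM per kb, and the co-receptor Gas1, at 20.9 CPM per kb, was above every one of the 9 genes. Exons of Dhh overlap those of Rhebl1 on the same strand and of Gm49442 on the other. Those of Gas1 overlap Gm48488 on the other strand. How many of the Dhh or Gas1 counts could be reads of these genes was not tested.

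**Figure D2:**
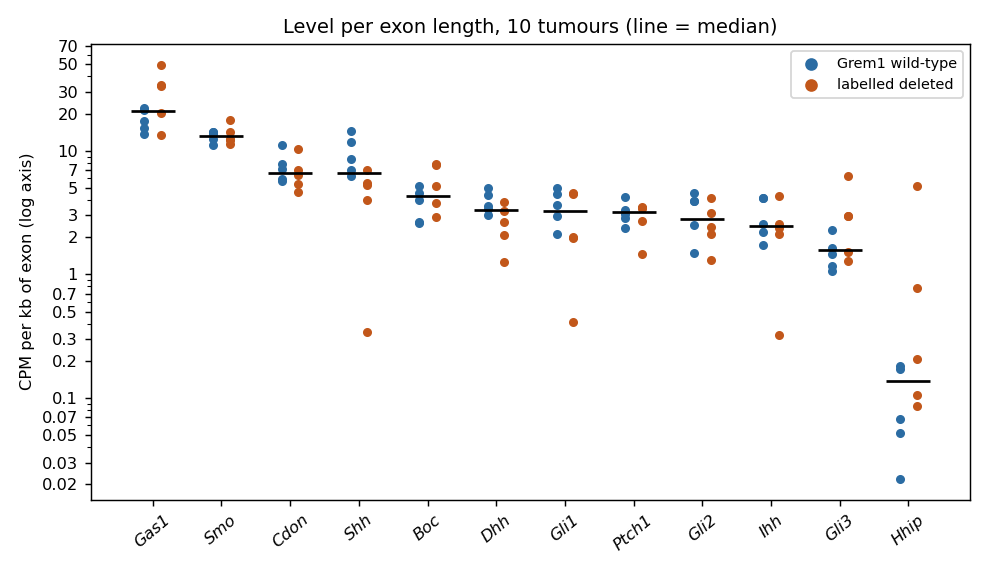
CPM per kb of exon (log axis) of the 9 genes and of Dhh, Boc and Gas1 in the 10 tumours, ordered by median (line). Smo and Gas1 lead, Hhip is lowest by median, and 1 labelled-deleted tumour has Shh, Ihh and Gli1 far below the rest.

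The comparison of the groups asked whether tumours labelled Grem1-deleted differed in these genes from wild-type tumours. By edgeR (quasi-likelihood, Benjamini-Hochberg) none of the 9 passed an adjusted p of 0.05, and neither did any of the 16565 genes tested (0% called). DESeq2, run without that filter on 31660 genes with any count, called 7 (0.0221%), and limma-voom called 0. At an unadjusted p under 0.05 in edgeR there were 2 of the 9, both higher in the tumours labelled deleted, where 5.93% of all genes were called in either direction and 3.47% as higher. In 0 of the 9 did the groups not overlap, against 0.93% of all genes. The log2 fold change was above 0 for 3 of the 9 and below 0 for 6, with a median of -0.16, and over all genes tested the median was 0.027 with 55.1% above 0.

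The mean Shh level was 27.5 ± 9.95 CPM over wild-type and 12.7 ± 7.19 CPM over labelled-deleted tumours (SD, n = 5). On the log2 scale the fold change was -1.11 (SE 0.56), with an unadjusted p of 0.0748 and an adjusted p of 0.759 in edgeR. An exact two-sided permutation test of its log2 CPM gave an unadjusted p of 0.0159, and 6.32% of all genes were under 0.05 by that test. Without labelled-deleted tumour 1 the log2 fold change was -0.82 (SE 0.27, edgeR unadjusted p = 0.013, adjusted p = 0.906), and without tumours 1 and 2 it was -0.69 (SE 0.28). The direction was the same without any single tumour, from -1.35 to -0.82. Summed epithelial markers, from 8 genes of which none was at 0, ran from 4747 to 6015 CPM in wild-type tumours and from 1843 to 5185 CPM in those labelled deleted. Summed gastric markers (5 genes) ran from 418.3 to 1994 CPM in wild-type tumours and stood at 61.7, 226, 305, 234 and 653 CPM in labelled-deleted tumours 1 to 5, and by both lists tumours 1 to 4 lay below every wild-type tumour. Per 1000 CPM of epithelial markers, Shh stood at 4.1, 6.57, 7.89, 2.97 and 5.12 CPM in wild-type tumours 1 to 5. In labelled-deleted tumours 1 to 5 it stood at 0.531, 2.49, 4.35, 5.31 and 3.04 CPM. Tumours 1 and 2 labelled deleted lay below the wild-type range on this scale, and tumours 3, 4 and 5 lay within it. The part of either marker list in the Shh difference was not tested.

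Ihh had a log2 fold change of -0.33 (SE 0.52), Gli1 one of -0.43 (SE 0.52), Gli2 one of -0.31 (SE 0.35), Cdon one of -0.16 (SE 0.24), Ptch1 one of -0.13 (SE 0.24) and Smo one of 0.05 (SE 0.13). Each of these 6 was smaller than its SE, and their adjusted p ran from 0.826 to 0.933. Without labelled-deleted tumour 1 Ihh was at -0.06 (SE 0.31), Gli1 at -0.16 (SE 0.34) and Gli2 at -0.14 (SE 0.32), while Ptch1 turned to 0.04 and Smo to -0.07.

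The mean Gli3 level was 14.6 ± 4.70 CPM over wild-type and 28.7 ± 19.2 CPM over labelled-deleted tumours (SD, n = 5), which as a log2 fold change is 0.97 (SE 0.42, edgeR unadjusted p = 0.0414, adjusted p = 0.759). Exact permutation gave p = 0.103. Without labelled-deleted tumour 1 Gli3 was at 0.51 (SE 0.31), and without tumours 1 and 2 at 0.33 (SE 0.33). For Hhip the means were 0.897 ± 0.660 CPM over wild-type and 11.7 ± 20.3 CPM over labelled-deleted tumours (SD, n = 5), which as a log2 fold change is 3.68 (SE 1.23, edgeR unadjusted p = 0.0129, adjusted p = 0.759). Exact permutation gave p = 0.103 for Hhip too. Its difference was set by 2 tumours: without labelled-deleted tumour 1 the log2 fold change was 1.57 (SE 0.76), and without tumours 1 and 2 it was 0.41 (SE 0.61).

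**Figure D3:**
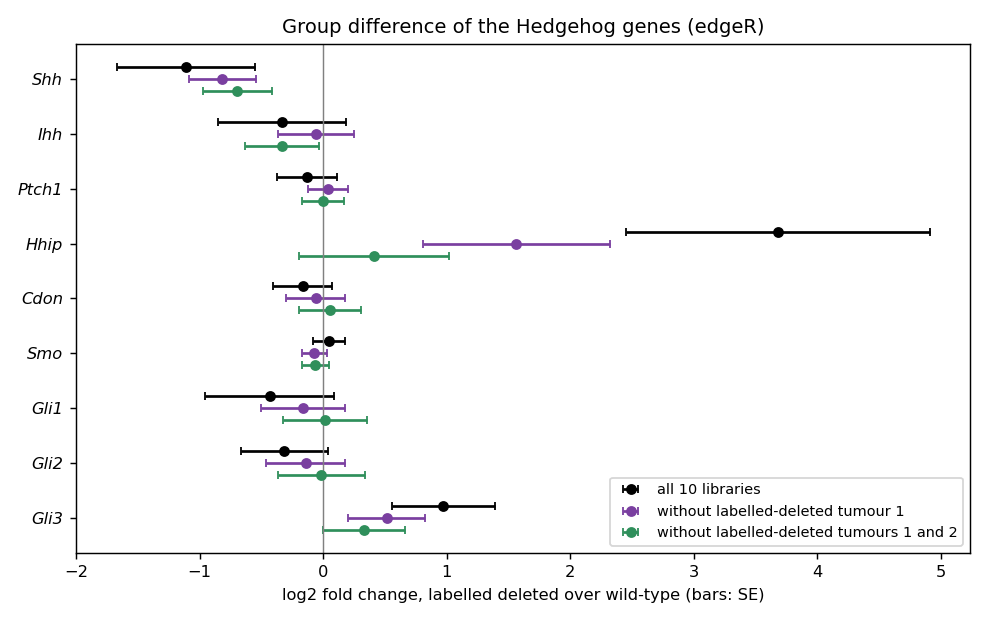
Log2 fold change of each gene, labelled deleted over wild-type, with SE bars, from all 10 libraries, without labelled-deleted tumour 1, and without tumours 1 and 2. Shh stays below 0 in all 3 (-1.11, -0.82 and -0.69), while Hhip goes from 3.68 to 0.41.

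Labelled-deleted tumour 1 held an extreme value of every one of the 9 genes, the lowest of the 10 tumours in 6 and the highest in 3. Over all genes tested it was the lowest or highest in 57.2%. The sizes were unequal. The median of the other 9 tumours was 20.4 times its Shh level, 7.93 times its Ihh level and 8.89 times its Gli1 level, but 2.41 times its Gli2 level, 2.30 times its Ptch1 level and 1.48 times its Cdon level. In the other direction it held 1.43 times the median of Smo, 4.16 times that of Gli3 and 49.5 times that of Hhip.

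Markers of most cell types were also low in that tumour. Its summed epithelial markers were 0.379 times the median of the other 9, its fibroblast markers 0.4 times, its myofibroblast markers 0.329 times and its endothelial markers 0.359 times. Markers of macrophages (0.232 times), smooth muscle (0.213 times), T cells (0.171 times), acinar cells (0.158 times), gastric epithelium (0.0944 times), B cells (0.0763 times) and islets (0.0162 times) were lower still, and the last 3 of these lay below its Ihh and Gli1 on the same scale. The intestinal epithelium sum was at 0.37 times, but most of it in this tumour was Vil1 (27.4 of 35.3 CPM). Apoa4 (4.72 CPM), Sis (1.16 CPM) and Cdx2 (1.07 CPM) of that list were few here, yet second only to labelled-deleted tumour 2. Fabp2, Lct and Cdx1 were not. Those of pericytes (0.693 times), Schwann cells (0.724 times) and mesothelium (0.907 times) were the least lowered. It was lowest for 8 of 8 epithelial and 6 of 10 fibroblast markers. Shh per 1000 CPM of epithelial markers was 0.531 CPM in this tumour and 2.49 to 7.89 CPM in the other 9. Gli1 per 1000 CPM of fibroblast markers was 0.248 CPM against 0.574 to 1.48 CPM. Ptch1 (2.49 CPM, against 1.45 to 3.95) and Gli2 (1.08 CPM, against 0.545 to 1.76) on the same scale lay within the range of the others. Hhip (5.76 CPM, against 0.00911 to 0.444) and Gli3 (7.29 CPM, against 0.433 to 1.77) lay above it. That sum was mostly 3 collagens, Col1a1, Col1a2 and Col3a1, which made up 87.4% of it in this tumour. Per 1000 CPM of the other fibroblast markers, Ptch1 was at 19.7 CPM against 20.4 to 44.6 CPM, just below the others, and Gli2 at 8.55 CPM against 6.90 to 19.9 CPM, within them. Per 1000 CPM of Pdgfrb alone, Ptch1 was at 58.2 CPM against 176 to 389 CPM, below the others. Gli2, at 25.2 CPM against 52.6 to 179 CPM, was below them too, while Gli3 lay within them. Pdgfrb was the 1 marker of the fibroblast list that was highest in this tumour, which lowers any level given per Pdgfrb there. Gli1 was lowest and Hhip highest by all 3 denominators. The receptors Pdgfra and Pdgfrb, which are in the fibroblast list, did not follow its collagens: Pdgfrb was highest in this tumour at 353 CPM, and Pdgfra stood at 227 CPM, second to 250 CPM in labelled-deleted tumour 3, while Col1a1 was lowest at 1815 CPM.

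**Figure D4:**
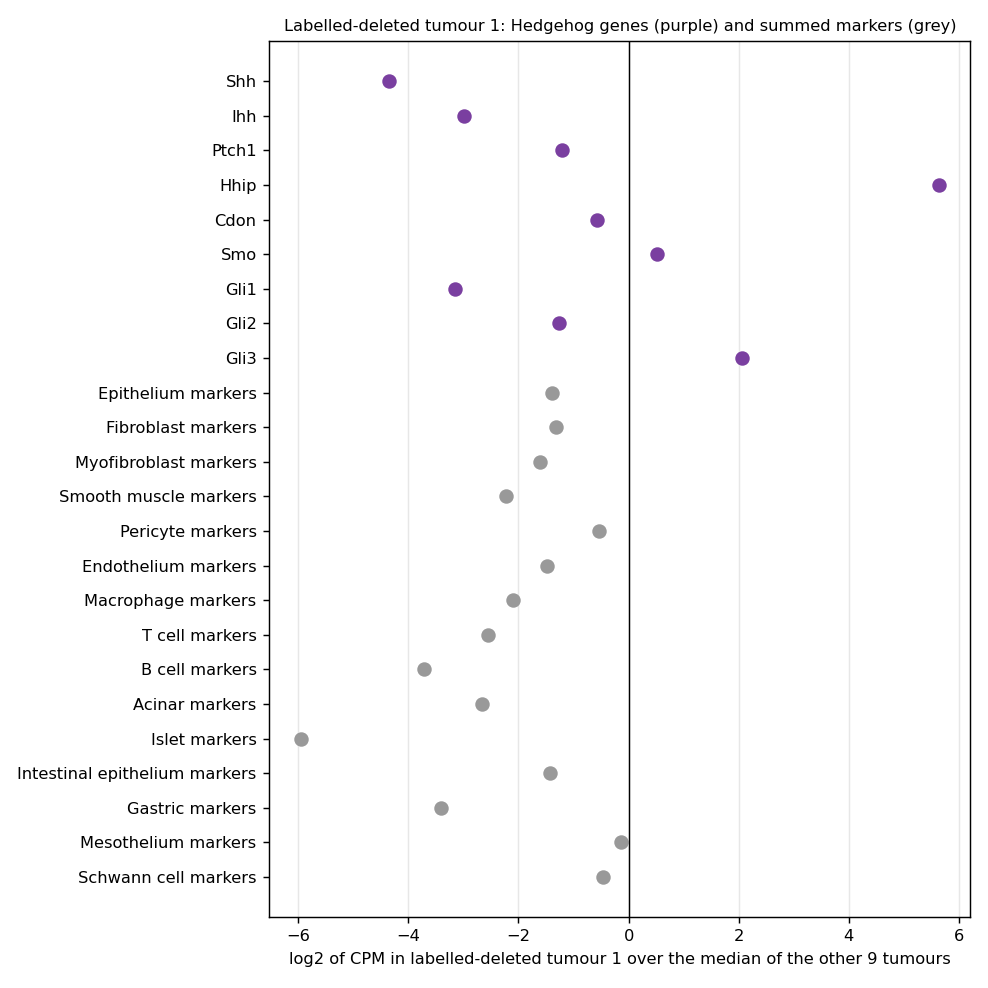
Level in labelled-deleted tumour 1 relative to the median of the other 9 tumours, on a log2 axis, for the 9 Hedgehog genes (purple) and for summed markers of 15 cell types (grey). Shh, Ihh and Gli1 lie further left than the epithelial and fibroblast markers, islet, B cell and gastric markers lie further left than Gli1, and Gli3 and Hhip lie to the right.

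Ligands and targets were then compared over all 10 tumours, as correlations of log2 CPM for the 36 pairs of the 9 genes, with permutation p-values adjusted over the 36 (Benjamini-Hochberg). By Pearson's r 9 pairs passed an adjusted p of 0.05, all with a positive r, and without labelled-deleted tumour 1 0 of 36 passed. The share of pairs passing among all genes tested was not computed, so the 9 pairs cannot be called particular to these genes. Labelled-deleted tumour 1 was the lowest or highest of the 10 tumours in 57.2% of all genes tested. Shh and Gli1 had r = 0.92 (permutation p = 0.00412, adjusted p = 0.0326) and Spearman's rho = 0.61 (p = 0.067, adjusted p = 0.296). Leaving out labelled-deleted tumour 1 and wild-type tumour 3, the farthest in Shh, gave r = 0.48 (exact permutation p = 0.243). With labelled-deleted tumour 1 alone left out r was 0.60, and with wild-type tumour 3 alone left out it was 0.91. That relation therefore rested mostly on labelled-deleted tumour 1. Shh and Ptch1 had r = 0.84 (adjusted p = 0.0588) and rho = 0.26, and r = 0.27 without labelled-deleted tumour 1 and wild-type tumour 3. The ligands themselves, Shh and Ihh, had r = 0.89 (adjusted p = 0.0588) and rho = 0.31. Their r was 0.03 without labelled-deleted tumour 1 and wild-type tumour 3, and 0.32 without labelled-deleted tumour 1 alone. It was 0.83 without labelled-deleted tumours 1 and 2 (adjusted p = 0.12 by exact permutation), so it depended on which tumour was left out beside tumour 1.

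Ihh and Ptch1 were correlated by both measures. They had r = 0.95 (permutation p = 0.00021, adjusted p = 0.00378) and rho = 0.85 (p = 0.00284, adjusted p = 0.0341), and r = 0.82 without labelled-deleted tumours 1 and 2, the farthest in Ihh (exact permutation p = 0.00992). Without labelled-deleted tumour 1 alone r was 0.81, with an adjusted p of 0.0732 by exact permutation. With each group's mean subtracted r was 0.95. Ihh and Gli1 had r = 0.85 (adjusted p = 0.0588) and rho = 0.47, with r = 0.73 without tumours 1 and 2 but 0.30 without tumour 1 alone.

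Among the transcription factors, Gli1 and Gli2 had r = 0.86 (permutation p = 0.0002, adjusted p = 0.00378) and rho = 0.88 (p = 0.00179, adjusted p = 0.0322), and r = 0.86 without labelled-deleted tumours 1 and 2 (exact permutation p = 0.00645). Gli1 and Cdon had r = 0.76 (permutation p = 0.00635, adjusted p = 0.0326) and rho = 0.89 (p = 0.00112, adjusted p = 0.0322), and r = 0.83 without tumour 3 of each group, the farthest in Cdon (exact permutation p = 0.0062). Without labelled-deleted tumour 1 alone, r was 0.87 for Gli1 and Gli2 and 0.78 for Gli1 and Cdon, with adjusted p of 0.058 and 0.119 by exact permutation. Gli3 went with Hhip instead, with r = 0.85 (permutation p = 0.00414, adjusted p = 0.0326) and rho = 0.66 (adjusted p = 0.231), and r = 0.39 without labelled-deleted tumours 1 and 2. The other pairs that passed by r were Ptch1 and Gli1 (0.89), Smo and Gli3 (0.79), Ptch1 and Gli2 (0.76) and Shh and Gli2 (0.70), none of which passed by rho (adjusted p from 0.231 to 0.374). The feedback receptors Ptch1 and Hhip had r = -0.52 (permutation p = 0.135, adjusted p = 0.173) and rho = 0.24 over the 10 tumours. Without labelled-deleted tumour 1 they had r = 0.56 (exact permutation p = 0.114, adjusted p = 0.257) and rho = 0.70 (exact permutation p = 0.0433, unadjusted). Over 18 relations of the 9 genes to the mean log2 CPM of the epithelial or fibroblast markers, 0 passed an adjusted p of 0.05. The highest rank correlation of these was that of Gli1 with the fibroblast markers, r = 0.83 (permutation p = 0.00539, adjusted p = 0.0901) and rho = 0.78 (p = 0.0111, adjusted p = 0.2), and r = 0.44 without labelled-deleted tumours 1 and 2.

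**Figure D5:**
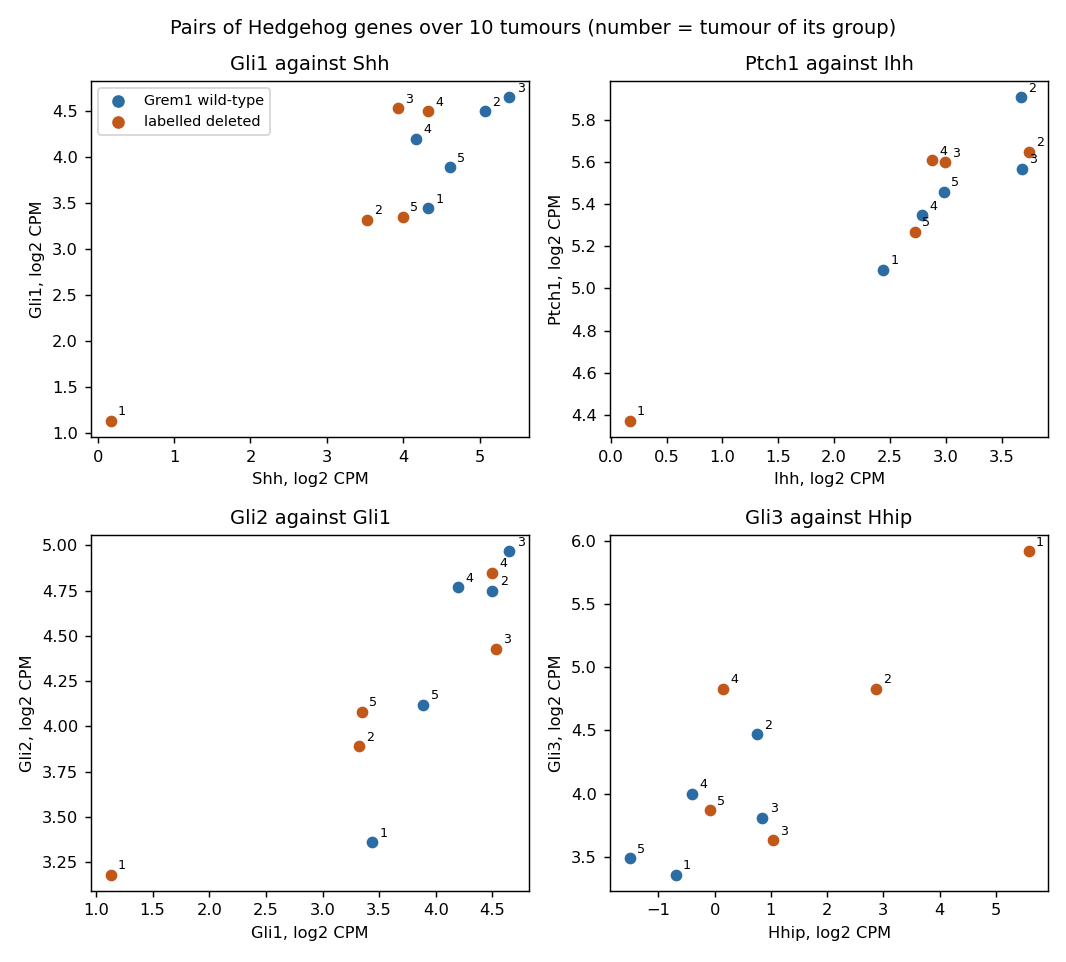
Log2 CPM of 4 pairs of genes in the 10 tumours, blue for wild-type and orange for labelled deleted, numbered within the group. In Gli1 against Shh, labelled-deleted tumour 1 lies alone at the lower left, and in Gli2 against Gli1 the other 9 tumours also line up.

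The genes most like a member over the 10 tumours, by Pearson's r of log2 CPM among all genes tested, differed between members. For Gli1 they included Grb10 (0.99), Islr (0.983), Cygb (0.983) and Gdf10 (0.979), with r of 0.92 to 0.96 when labelled-deleted tumour 1 was left out. For Shh they were Mal, Hyal2, Me1, Gjb1 and Smpd3, from 0.975 to 0.986, and 0.81 to 0.93 without that tumour. For Ihh they were Ahcyl2, Galnt12, Ptgr1, Gm17099 and Tmprss4, from 0.972 to 0.986, and 0.87 to 0.94 without that tumour. For Ptch1 they were Sort1, Tmprss4, Gpld1, Ahcyl2 and Ugt8a, from 0.958 to 0.975, and 0.86 to 0.96 without it, so Ahcyl2 and Tmprss4 were in both. For Hhip they were Rpa1, Ubac1, Usp1, Dpy19l1 and Meg3, from 0.955 to 0.977, and 0.87 to 0.95 without that tumour. These were picked as the highest of 16565 genes over 10 tumours and are a description.

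Of 39 further genes of the pathway, 36 had enough counts to be tested. None passed an adjusted p of 0.05, 24 had a log2 fold change above 0 and 12 below, and the median was 0.15. At an unadjusted p under 0.05 there was 1, Gas1, a co-receptor for ligand, against 5.93% of all genes. Its means were 53.5 ± 11.3 CPM over wild-type and 89.6 ± 41.6 CPM over labelled-deleted tumours (SD, n = 5), which as a log2 fold change is 0.74 (SE 0.31, edgeR unadjusted p = 0.0381, adjusted p = 0.759). Labelled-deleted tumour 1 held 147.5 CPM of Gas1, and leaving it out gave 0.49 (SE 0.27). Boc, the co-receptor related to CDON, had a log2 fold change of 0.52 (SE 0.31), or 0.35 (SE 0.31) when tumour 1 was left out.

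Among the ligands and their release, Dhh had a log2 fold change of -0.55 (SE 0.28), or -0.38 (SE 0.21) when that tumour was left out. Disp1, which frees ligand from the producing cell, was at 0.18 (SE 0.11), and Scube2, which carries it away, at -0.16 (SE 0.56), turning to 0.13 (SE 0.30) without labelled-deleted tumour 1. Scube2 stood at 0.089 CPM in labelled-deleted tumour 1, a single count, and at 1.31 to 3.36 CPM in the other 9.

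Of 16 genes of signal relay and the cilium, 10 were above 0 and 6 below, with a median of 0.08. Sufu, the inhibitor that holds GLI proteins, was at 0.16 (SE 0.08) and Kif7, the ciliary motor of the pathway, at 0.09 (SE 0.21). Of 9 tested genes known as targets in mesenchyme, 7 were above 0 and 2 below, with a median of 0.19. Foxf1, a forkhead factor of gut mesenchyme, was at 0.53 (SE 0.42), or 0.19 (SE 0.38) without labelled-deleted tumour 2. Bmp4, a secreted growth factor that GREM1 binds, was at 0.23 (SE 0.36), or 0.47 (SE 0.19, edgeR unadjusted p = 0.0334, adjusted p = 0.906) without labelled-deleted tumour 1. Labelled-deleted tumour 1 was lowest for 6 of these 9 and highest for 1, where it was lowest for 29.4% and highest for 27.9% of all genes. Of the 36 further pathway genes tested it was lowest for 16 and highest for 12. Ligands and their release had 4 lowest and 2 highest of 7, receptors and co-receptors 2 and 2 of 4, and signal relay and cilium 4 and 7 of 16.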

How the data were processed

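RNA with a polyA tail from 10 tumours was sequenced on an Illumina instrument, per the labels' protocols. For all 10 tumours the authors deposited 1 table holding an estimated count per gene (7.96% of values not whole) and, per tumour, normalized log2 values of an unnamed transformation, which the deposited files do not explain and which served for 1 alternative. The submitters' processing notes name HISAT2 2.2.1, RSEM 1.3.3, DESeq2 1.32.0 and the build mm10. The deposited estimated counts were made whole by rounding. Genes were kept with filterByExpr (minimum count 10), scaled with edgeR's TMM factors and tested with edgeR 4.0.16 (robust quasi-likelihood F test, group only, Benjamini-Hochberg adjustment) in R 4.3.3. The SE comes from the F statistic. Log2 CPM has a prior count of 2. Exact permutation covers 252 assignments, with a smallest p of 0.00794, and correlations used 100000 resamples, or all orders with fewer than 10 tumours. With totals of 10159891 counts or more, spread between tumours (biological coefficient of variation 0.355) is the main limit for most genes. Counting matters too for Hhip and Scube2, and in labelled-deleted tumour 1 for Shh, Ihh and Gli1 (11, 11 and 23 estimated counts). GENCODE M21 (GRCm38) gave coordinates and exon lengths, with 9 of 9 genes matched. Every pair of libraries in a group differed by more than counting noise (lowest chi-square per degree of freedom 23.8). Replicates are called biological in the design text, with no animal named, so p-values measure the spread between these samples. Members, gene lists and tests were chosen with earlier results of these data known. The genes named are the 9, the further pathway genes with an unadjusted p under 0.05 or groups apart, 10 fixed pathway genes, the 5 nearest genes of 5 members, and Grem1, of which 1 pathway gene and 1 nearest gene are not reported here; Pdgfra, Pdgfrb, Col1a1, Epcam, Lyz2 and Pecam1 were picked from the marker lists after their values were seen. Alternatives were DESeq2 1.42.0, limma-voom (limma 3.58.1), other scalings, filters and dispersions, blocks, omitted libraries and the deposited log2 values. The other fibroblast denominators were chosen after seeing the data. The edgeR fit and the correlations were tested on simulated data.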

Additional observations from a re-analysis of the deposited data

Results flagged for a closer look

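Of 18 groups of 5 values (9 genes in each group, on the log2 CPM scale), 2 held a sample far from the others by Dixon's test. Its nominal rate is about 1 in 20 for independent groups, but these 18 share the same 10 tumours. The test was not run over all genes, where labelled-deleted tumour 1 was the lowest or highest in 57.2%, so the flags cannot be called particular to these genes. Both were labelled-deleted tumour 1: its Shh level of 0.979 CPM was separated from the next tumour by 0.81 of the range of its group, and its Ihh level of 0.979 CPM by 0.71, just above the critical value.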

How the results depend on the processing

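Over 189 refits of the 9 genes (21 alternatives each), 0 passed an adjusted p of 0.05, 177 kept their direction and 12 turned. Shh ran from -1.39 to -0.69, Gli3 from 0.25 to 1.16 and Hhip from 0.41 to 4.02, with no change of sign. With the number in the tumour ID as a block, which leaves labelled-deleted tumours 1 and 4 without a partner, Ihh was at 0.0541, Ptch1 at 0.0519, Cdon at 0.0098, Smo at -0.11 and Scube2 at 0.23. Without labelled-deleted tumours 1 and 2 together, Ptch1 was at 0.0007, Cdon at 0.058, Smo at -0.0627, Gli1 at 0.0189, Scube2 at 0.11 and Grem1 at -0.40. With single tumours left out, Ptch1 ran from -0.22 to 0.0401, Cdon from -0.38 to 0.0172, Smo from -0.0694 to 0.10, Kif7 from -0.0342 to 0.19 and Scube2 from -0.30 to 0.14. The cause was not tested. DESeq2 called 7 of 31660 genes with any count, and every other alternative called 0.

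Further pathway genes at an unadjusted p under 0.05 numbered 4 by DESeq2 and with no filter, 3 with the tumour ID block, 2 without tumours 1 and 2 and with the deposited log2 values, and 0 to 4 with single tumours left out (0 without wild-type tumour 4 or 5, 2 without labelled-deleted tumour 1 or 4, 3 without wild-type tumour 3, 4 without labelled-deleted tumour 3 or 5). The share of all genes under 0.05 is given for the main fit only (5.93%). Whether a count under an alternative, the blocks included, exceeds the share of its own fit is therefore not shown. Pairs of members past an adjusted p of 0.05 numbered 1 without tumours 1 and 2, and 0 to 16 with single tumours left out (0 without labelled-deleted tumour 1, 2 without wild-type tumour 2 or labelled-deleted tumour 5, 4 without wild-type tumour 1 or labelled-deleted tumour 3, 5 without labelled-deleted tumour 4, 16 without labelled-deleted tumour 2); these fits have fewer samples. Relations to the marker scores past it numbered 0 to 1 (1 without wild-type tumour 2). Per kb of the longest transcript, Ptch1 was at 4.4 and Smo at 19.4.

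The labels do not say that replicate numbers pair the tumours: deviations of same-numbered tumours correlated from -0.0157 to 0.387, and 2 of 5 pairs were each other's best match. The tumours numbered 3 (0.317) and 5 (0.387) also share the number in their tumour ID, whose meaning is not stated. With the replicate block 0 genes passed, 2 further pathway genes had an unadjusted p under 0.05, and Shh was at -1.39 (edgeR adjusted p = 0.839). Hhip, at 2 to 23 counts in 8 tumours, is the member that depth limits most.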
